A study of Mus musculus with 10 samples.

Results

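The genes described here encode the actin cytoskeleton and its motor: 39 genes chosen by symbol, from the actins themselves to the proteins that bind, branch, cap, cut, cross-link and pull actin filaments. All 39 were found among the 56691 genes of the table, and 37 were abundant enough to test, which required at least 1 FPKM, a fragment number corrected for gene length and library size, in at least 5 libraries. The 10 RNA-seq libraries came from the epithelium of the mouse esophagus, 5 of them wild type (labelled WT) and 5 knockout (p63CreERT2;Mst1 loxP/loxP;Mst2-/-). Mice of either group were given tamoxifen at 100 mg/kg as 3 doses, every 2 weeks per the labels. RNA extraction followed after around 8 weeks. Muscle, adventitia and, after Dispase digestion, mesenchyme had been removed from the epithelium. The Mst2 alleles are null in every cell, while deletion of Mst1 depends on p63CreERT2, a Cre recombinase that tamoxifen activates and whose name points to p63, a marker of basal cells. Whether wild-type mice carried Cre, and the age, sex and strain background of either group, are not stated in the sources used here. The labels number the samples without naming separate mice, so a p-value here sets a difference against the spread of the samples, which may be technical.

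Actin monomers polymerize into filaments. Profilin and thymosin bind the monomers, the Arp2/3 complex starts branches, capping proteins stop growth, and cofilin and gelsolin cut filaments. Tropomyosin coats filaments and myosin II slides them past each other under the control of the GTPase RhoA and its kinases. In squamous epithelium this network underlies cell junctions and cell shape. Mst1 and Mst2 are kinases of the Hippo pathway, which restrains the transcriptional coactivator Yap, and actin tension is known to act on Yap.

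Each library held 13070000 to 16440000 fragments, as estimated from the step size of the values. Transcript of Stk3, the gene of Mst2, stood at 2.44, 3.48, 2.61, 2.47 and 2.08 FPKM in wild type 1 to 5 and at 0.25, 0.09, 0.08, 0.05 and 0.20 FPKM in knockout 1 to 5. Stk4, the gene of Mst1, stood at 20.8, 22.7, 17.7, 17.0 and 18.2 FPKM in wild type and at 15.8, 15.9, 12.2, 17.4 and 16.8 FPKM in knockout. Stk3 was thus near 0 in each knockout library, whereas the Stk4 groups overlapped, and a value summed over a gene is no check of the deletion of single exons. The 8 squamous epithelium markers were present in all libraries and summed to 65750 to 70781 FPKM among wild-type and 63065 to 69398 FPKM among knockout libraries, led by Krt13. Markers of other cells were low. The 8 smooth muscle markers summed to 3.11 to 8.04 FPKM among wild-type and 3.08 to 5.07 FPKM among knockout libraries, mostly from Smtn, with Des at 0. The 10 striated muscle markers summed to 4.74 to 6.45 and 6.03 to 11.4 FPKM, led by Tnni2, with Mylpf called higher in knockout and Myh1, Myh2, Myh4 and Tnnc2 at 0. The 6 endothelial markers, led by Eng, summed to at most 0.20 FPKM, with Cdh5 and Kdr at 0. The 7 leukocyte markers, led by Cd74, summed to 5.47 to 33.5 FPKM among wild-type and 5.67 to 17.0 FPKM among knockout libraries. Of these, only Cd74 was abundant enough to test, and it did not pass.

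Of the 37 tested actin genes, 3 were higher in knockout (Capg, Actr2 and Actr3) and 3 were lower (Tpm3, Capza1 and Gsn), and the falls of Tpm3 and Capza1 came with rises of near-identical copies. The test was limma on log2(FPKM + 1), with Benjamini-Hochberg adjustment over 11386 genes and a threshold of 0.05, so fold changes are on that scale. These 6 calls were 16.2% of the members, against 12.9% of all genes tested. By direction, 8.11% of the members were higher against 7.9% of all genes, and 8.11% were lower against 4.96%. The groups did not overlap for 5 members (13.5%; Capg, Actr2, Actr3, Tpm3 and Capza1), against 10.5% of all genes. The median log2 fold change of the members was 0.12, against 0.06 over all genes, with 28 members above 0 and 9 below. After scaling by median ratios the members divided into 21 above 0 and 16 below, and after quantile normalization into 20 and 17. The shift was general: higher genes made up 61.4% of all calls as reported, 46.6% with median ratios and 47.9% with quantile normalization. When a score of the 32 fibroblast, endothelial and muscle markers entered the model, limma called 0 of the 37 members, with 4 at an unadjusted p under 0.05, and called 68 genes higher and 65 lower in all. That score, a mean of log2(FPKM + 1), was 0.352 to 0.437 among wild-type and 0.297 to 0.374 among knockout libraries, so it moved with genotype, and its part in the calls was not tested. Among the tested markers of the score, the fibroblast gene Dcn alone was called lower in knockout (log2 fold change -2.83). Mylpf alone was called higher (0.54). A score without Dcn was not fitted, so a general change of these cell types cannot be read from it. With the score in the model, the log2 fold changes were -1.68 for Tpm3 (limma adjusted p = 0.0804) and -1.72 for Capza1 (0.0665), both farther from 0 than without it, while those of Capg, Gsn, Actr2 and Actr3 were nearer to 0, at 0.46, -0.42, 0.23 and 0.27. In bulk tissue, fewer cells of a type and less RNA per cell cannot be told apart.

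**Figure D1:**
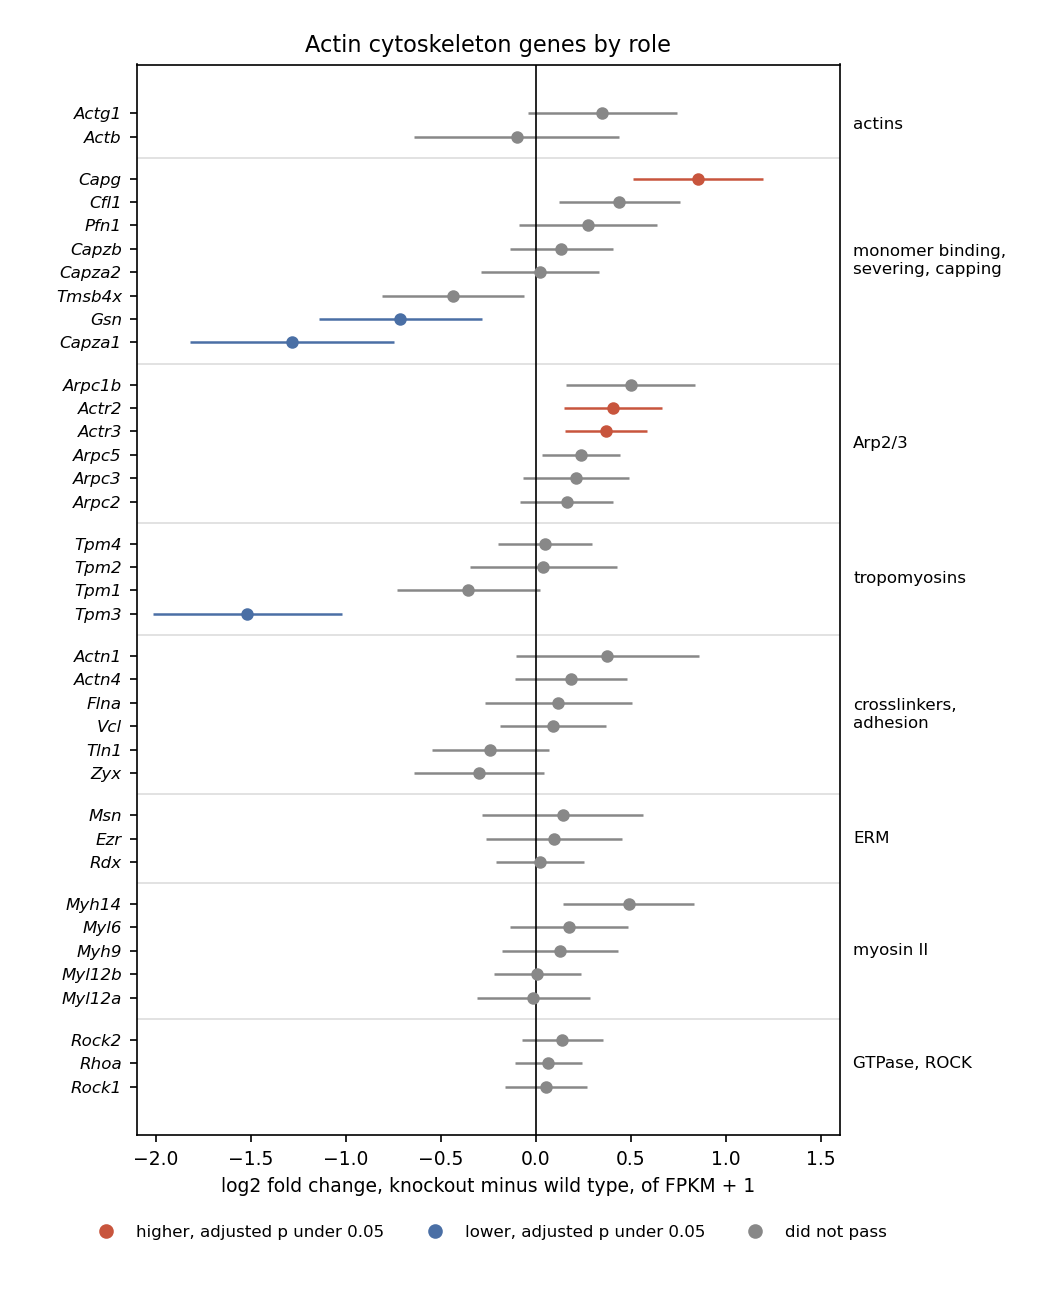
Log2 fold change of FPKM + 1, knockout minus wild type, for the 37 tested actin genes, grouped by role; points are limma estimates from 5 and 5 libraries and bars their 95% confidence intervals. Red points mark the 3 genes higher in knockout (Capg, Actr2, Actr3), blue points the 3 lower (Tpm3, Capza1, Gsn), and grey points the 31 that did not pass.

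The cytoplasmic actins were among the most abundant members and neither passed the test. Actb, which encodes beta-actin, stood at 300.1, 231, 337, 316 and 359 FPKM in wild type 1 to 5 and at 229, 219, 494, 196 and 386 FPKM in knockout 1 to 5. Actg1, which encodes gamma-actin, stood at 141, 133, 134, 159 and 157 FPKM in wild type and at 156, 153, 265, 141 and 237 FPKM in knockout. For both actins the groups overlapped, knockout 3 and knockout 5 held the highest values of all 10 libraries, and for Actb the 3 other knockout libraries lay below every wild-type library. The Actb means were 309 ± 48.9 FPKM (wild type) and 305 ± 130 FPKM (knockout) (SD, n = 5 and 5), and the log2 fold change was -0.10 (95% interval -0.64 to 0.44; limma adjusted p = 0.826). The Actg1 means were 145 ± 12.5 and 190.4 ± 56.6 FPKM, with a log2 fold change of 0.35 (95% interval -0.04 to 0.74; limma adjusted p = 0.215). Both intervals include 0. Of the summed level of Actb and Actg1 per length, without copies, Actg1 made up 28.4% to 36.5% among wild-type and 34.9% to 41.8% among knockout libraries. The actins of muscle were not part of this level, since Acta1 reached at most 0.10 FPKM and Acta2 at most 0.59 FPKM.

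Actg1 has processed pseudogene copies, so its level depends on how fragments were divided among them. Gm8399 on chromosome 13 is identical to Actg1 at 99.28% of 1117 aligned bases. The windows below show a stretch of the coding sequence and of the copy (GRCm38, chr11:120346945-120347004, minus strand, and chr13:81065384-81065443, plus strand), with the differing bases in capitals, because so few differences tell the transcripts apart.
Actg1: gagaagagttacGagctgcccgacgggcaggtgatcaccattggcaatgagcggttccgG
Gm8399: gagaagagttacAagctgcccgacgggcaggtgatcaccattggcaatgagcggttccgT
Gm8399 stood at 6.05, 5.77, 166, 93.2 and 86.9 FPKM in wild type 1 to 5 and at 6.99, 5.95, 11.4, 7.07 and 10.6 FPKM in knockout 1 to 5. Wild type 3, 4 and 5 were therefore far above all other libraries, and the 2 remaining wild-type libraries lay within or just below the knockout range. The comparison of groups for Gm8399 did not reach the threshold (limma adjusted p = 0.181). Gm12715 on chromosome 4, also a copy of Actg1, lay at 25.9 to 37.3 FPKM among wild-type and 24.6 to 53.8 FPKM among knockout libraries. Summed over Actg1 and these copies, as FPKM times gene length in kilobases (FPKM kb), the level was 501 ± 92.3 FPKM kb in wild type and 559 ± 167 in knockout (SD, n = 5 and 5), and the log2 fold change was 0.13 (limma adjusted p = 0.715). The log2 fold change of Actg1 was therefore 0.35 by itself and 0.13 with its copies, and neither passed the test.

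Among the 8 proteins that bind monomers or cap and sever filaments, Capg was higher and Gsn and Capza1 were lower. Capg, a capping protein of the gelsolin family that does not sever filaments, stood at 60.2, 63.9, 72.6, 62.8 and 45.7 FPKM in wild type 1 to 5 and at 121, 111, 133, 79.4 and 112 FPKM in knockout 1 to 5. Every knockout library lay above every wild-type library, with knockout 4 nearest to them. Capg rose from 61.0 ± 9.75 to 111 ± 19.9 FPKM (SD, n = 5 and 5), 82.5% higher, with a log2 fold change of 0.85 (standard error 0.16; limma adjusted p = 0.00448). The call held without each single library. It ended only with the marker score in the model, among the alternatives run, where the log2 fold change was 0.46 (limma adjusted p = 0.486).

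Gsn encodes gelsolin, which severs and caps filaments when calcium rises, and its transcript was the second most abundant of the members. It stood at 289.9, 261, 317, 432 and 439 FPKM in wild type 1 to 5 and at 155, 175, 204, 258 and 267 FPKM in knockout 1 to 5. The groups touched, since knockout 5 lay above wild type 2, and all other knockout libraries lay below all wild-type libraries. Gsn fell from 348 ± 82.3 to 212 ± 49.3 FPKM (SD, n = 5 and 5), a log2 fold change of -0.71 (standard error 0.20; limma adjusted p = 0.0357). The call ended without wild type 1, 4 or 5 (limma adjusted p = 0.0515, 0.0698 and 0.0918) and without knockout 1, 2 or 3 (limma adjusted p = 0.0800, 0.0732 and 0.0686). It also ended with no filter on low values (limma adjusted p = 0.0872) and with the marker score in the model, where the log2 fold change was -0.42 (limma adjusted p = 0.684). Fibroblasts also express Gsn, and the 8 fibroblast markers summed to 8.51 to 18.2 FPKM among wild-type and 2.23 to 5.43 FPKM among knockout libraries. That difference lay in Dcn, the only marker of the list that was called, at 4.42 to 13.6 FPKM among wild-type and 0.06 to 1.12 FPKM among knockout libraries; without it the sums were 2.07 to 6.26 and 2.16 to 5.37 FPKM. Col1a2 was at 0 in all libraries and Col1a1 at no more than 0.02 FPKM. The part of these cells in the Gsn result was not tested.

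**Figure D2:**
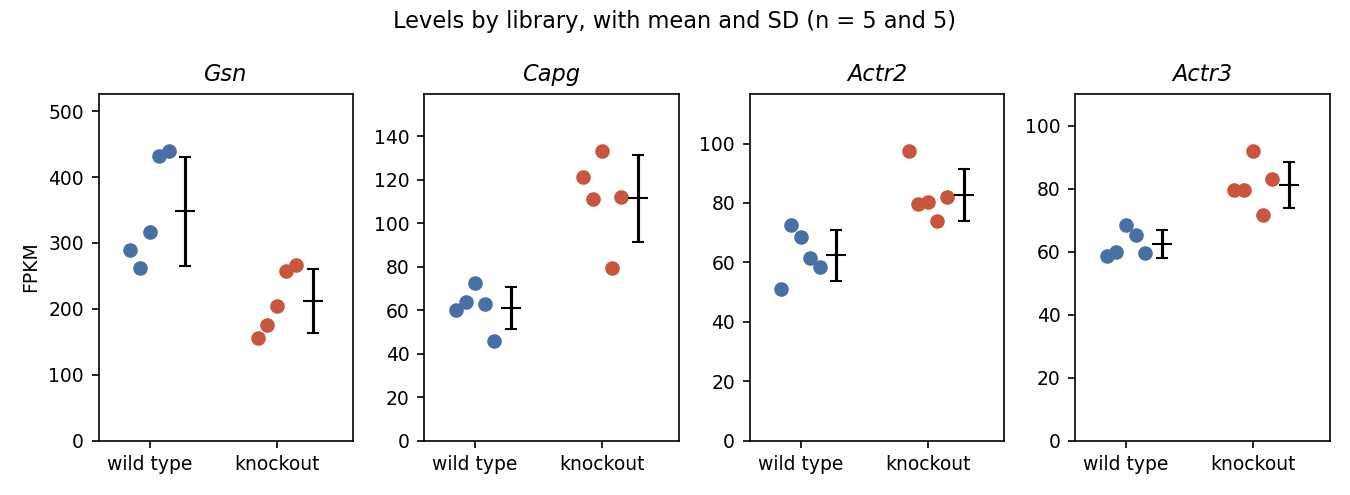
FPKM of Gsn, Capg, Actr2 and Actr3 in the 5 wild-type (blue) and 5 knockout (red) libraries, in order of their number from left to right within a group; the black bars are the mean and SD. Knockout values lie above all wild-type values for Capg, Actr2 and Actr3, and the groups overlap for Gsn through knockout 5.

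The other monomer-binding, severing and capping genes did not pass. Cfl1, the severing protein cofilin, had a wild-type mean of 78.5 ± 14.8 FPKM and a knockout mean of 106 ± 12.1 FPKM (SD, n = 5 and 5; log2 fold change 0.44, limma adjusted p = 0.0675). Pfn1, profilin, had 68.0 ± 15.2 and 81.9 ± 14.4 FPKM (0.27, limma adjusted p = 0.295). Tmsb4x, the monomer-sequestering thymosin beta-4, had 203 ± 50.6 and 148 ± 22.1 FPKM (-0.44, limma adjusted p = 0.111). Cofilin and profilin thus leaned to knockout and thymosin to wild type, all with overlapping groups. After quantile normalization Tmsb4x was called lower (limma adjusted p = 0.0260). Capzb, the beta subunit of the capping protein CapZ, had 55.5 ± 7.57 and 60.9 ± 8.35 FPKM (0.13, limma adjusted p = 0.512).

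The alpha subunits of CapZ are encoded by Capza1 on chromosome 3 and Capza2 on chromosome 6. Capza1 stood at 24.8, 35.8, 27.2, 24.6 and 24.9 FPKM in wild type 1 to 5 and at 10.8, 22.4, 8.08, 7.99 and 8.15 FPKM in knockout 1 to 5. The groups did not overlap, and knockout 2 lay closest to wild type. Capza1 fell from 27.4 ± 4.76 to 11.5 ± 6.20 FPKM (SD, n = 5 and 5; log2 fold change -1.28, SE 0.25, limma adjusted p = 0.00628). Capza2 had 29.8 ± 3.85 and 30.5 ± 6.33 FPKM (0.02, limma adjusted p = 0.943). The share of Capza1 in the summed alpha subunits, without the copy described below, was 45.4% to 50.5% among wild-type and 21.1% to 40.1% among knockout libraries.

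The fall of Capza1 had a counterpart in Capza1-ps1, a pseudogene on chromosome 1 that is identical to it at 99.72% of 2854 aligned bases. The windows show 60 bases of the coding sequence and of the pseudogene (GRCm38, chr3:104834140-104834747, minus strand, a range that includes an intron, and chr1:105456466-105456525, plus strand), in which a single base, in capitals, differs.
Capza1: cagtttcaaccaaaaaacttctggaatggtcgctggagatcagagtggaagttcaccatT
Capza1-ps1: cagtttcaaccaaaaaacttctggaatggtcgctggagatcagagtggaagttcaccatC
Capza1-ps1 stood at 6.73, 10.8, 8.84, 6.76 and 7.64 FPKM in wild type 1 to 5 and at 44.0, 25.3, 35.3, 37.6 and 37.8 FPKM in knockout 1 to 5. It was thus higher in every knockout library, where its parent was lower, and knockout 2 again lay closest to wild type. The pseudogene rose with a log2 fold change of 2.01 (standard error 0.16; limma adjusted p = 6.92e-06). Summed over parent and copy, the level was 127 ± 22.7 FPKM kb in wild type and 146 ± 14.8 in knockout (SD, n = 5 and 5), and the log2 fold change was 0.21 (limma adjusted p = 0.282). Capza1 itself made up 80.2% to 83.0% of that sum in wild type, 53.9% in knockout 2 and 22.0% to 24.6% in the other knockout libraries. How the authors' counting assigned fragments that match both genes is not stated in the sources used here.

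The Arp2/3 complex, which nucleates branches on existing filaments, had 2 of the 6 subunits described here higher in knockout and none lower. All 6 log2 fold changes were above 0, as were those of 6667 of all 11386 genes, and 7.9% of all genes were called higher. Of the 3 other subunits tested, 0 were called, and Arpc1a had a log2 fold change of -0.02. In other fits, that of Arpc2 was -0.0036 after quantile normalization, and those of Arpc2 and Arpc3 were -0.07 and -0.13 with the marker score in the model. Actr2, the actin-related protein Arp2, stood at 51.1, 72.7, 68.5, 61.4 and 58.3 FPKM in wild type 1 to 5 and at 97.4, 79.5, 80.5, 74.1 and 82.0 FPKM in knockout 1 to 5. Actr3, the actin-related protein Arp3, stood at 58.8, 59.8, 68.6, 65.4 and 59.7 FPKM in wild type and at 79.7, 79.6, 91.9, 71.6 and 83.0 FPKM in knockout. For both, every knockout library lay above every wild-type library, with knockout 4 the lowest of the knockout group. Actr2 rose from 62.4 ± 8.48 to 82.7 ± 8.74 FPKM (SD, n = 5 and 5), 32.6% higher (log2 fold change 0.41, SE 0.12, limma adjusted p = 0.0437). Actr3 rose from 62.5 ± 4.33 to 81.1 ± 7.32 FPKM, 29.9% higher (log2 fold change 0.37, SE 0.10, limma adjusted p = 0.0302). Arp2 and Arp3 together form the seed from which a branch grows, and their transcripts stood at like levels in these libraries. Added to its pseudogenes Actr3-ps and Gm15899, Actr3 kept its call, with a log2 fold change of 0.37 (limma adjusted p = 0.0309).

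These calls were close to the threshold. Both ended after median-ratio scaling (limma adjusted p = 0.0847 for Actr2 and 0.0753 for Actr3) and after quantile normalization (0.111 and 0.0845). Both also ended with no filter on low values (0.0919 and 0.0573). They ended too with clock output genes as a covariate (0.0711 and 0.0664) and with the marker score (0.719 and 0.597). The Actr2 call held without wild type 2 or 3 or knockout 4, and ended without any other single library, at limma adjusted p between 0.0692 (without wild type 4) and 0.107 (without wild type 1). The Actr3 call held without wild type 2, 3 or 4 or knockout 4, and ended without any other, at limma adjusted p between 0.0545 (without knockout 2) and 0.0783 (without wild type 5).

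The remaining Arp2/3 subunits did not pass. Arpc1b, a scaffold subunit, had a wild-type mean of 4.70 ± 1.13 FPKM and a knockout mean of 7.04 ± 1.32 FPKM (SD, n = 5 and 5; log2 fold change 0.50, limma adjusted p = 0.0541), and it was called higher when genes needed 5 FPKM, without wild type 4 and without knockout 4 (limma adjusted p = 0.0488, 0.0205 and 0.0201). Arpc5 had 69.9 ± 5.26 and 82.6 ± 5.05 FPKM (0.24, limma adjusted p = 0.115). Arpc3 had 58.9 ± 10.2 and 67.9 ± 7.19 FPKM (0.21, limma adjusted p = 0.288), and Arpc2 195 ± 23.6 and 217 ± 10.6 FPKM (0.16, limma adjusted p = 0.357). The levels differed widely within the complex, from Arpc2 at a mean of 206 FPKM over the 10 libraries to Arpc1b at 5.87 FPKM. Arpc1b has a paralog, Arpc1a, and neither it nor the other tested subunits outside the 6, Arpc4 and Arpc5l, passed the test (limma, 0 of 3, with 0 at an unadjusted p under 0.05).

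The tropomyosins are coiled-coil proteins that lie along the filament and set which myosins and severing proteins reach it. Tpm4 was the most abundant, with a wild-type mean of 99.9 ± 11.6 FPKM and a knockout mean of 103 ± 8.29 FPKM (SD, n = 5 and 5; log2 fold change 0.05, limma adjusted p = 0.807). Tpm2 had 61.5 ± 11.6 and 63.5 ± 15.3 FPKM (0.04, limma adjusted p = 0.911), and Tpm1 7.29 ± 2.23 and 5.38 ± 1.00 FPKM (-0.35, limma adjusted p = 0.193). None of these passed. Tpm4 made up 47.1% to 61.0% of the summed tropomyosin level per length in wild type and 46.7% to 62.2% in knockout.

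Tpm3 on chromosome 3 had the largest fall of all members. It stood at 23.3, 18.9, 25.4, 31.9 and 26.2 FPKM in wild type 1 to 5 and at 5.85, 15.4, 8.72, 5.81 and 7.02 FPKM in knockout 1 to 5. The groups did not overlap, and knockout 2 lay closest to wild type, as it did for Capza1. Tpm3 fell from 25.1 ± 4.70 to 8.56 ± 4.01 FPKM (SD, n = 5 and 5; log2 fold change -1.52, SE 0.23, limma adjusted p = 0.00143). Tpm3-rs7, a related sequence on chromosome 14, is identical to a Tpm3 transcript at 99.38% of 2102 aligned bases. The windows show 60 bases of the Tpm3 coding sequence and of Tpm3-rs7 (GRCm38, chr3:90079799-90079858 and chr14:113314743-113314802, plus strands), with the differing bases in capitals.
Tpm3: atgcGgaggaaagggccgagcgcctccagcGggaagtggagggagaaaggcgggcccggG
Tpm3-rs7: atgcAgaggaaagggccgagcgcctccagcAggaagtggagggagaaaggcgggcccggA
Tpm3-rs7 stood at 13.1, 10.6, 13.4, 14.2 and 12.9 FPKM in wild type 1 to 5 and at 61.5, 32.1, 85.9, 57.6 and 75.3 FPKM in knockout 1 to 5. Every knockout library was above every wild-type library, and knockout 2 was the lowest of the knockout group. Tpm3-rs7 rose with a log2 fold change of 2.13 (standard error 0.22; limma adjusted p = 6.9e-05). Summed over Tpm3 and Tpm3-rs7, the level was 181 ± 31.2 FPKM kb in wild type and 186 ± 33.9 in knockout (SD, n = 5 and 5), and the log2 fold change was 0.04 (limma adjusted p = 0.880). Tpm3 made up 83.4% to 86.4% of that sum in wild type, 57.7% in knockout 2 and 20.9% to 22.3% in the other knockout libraries.

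**Figure D3:**
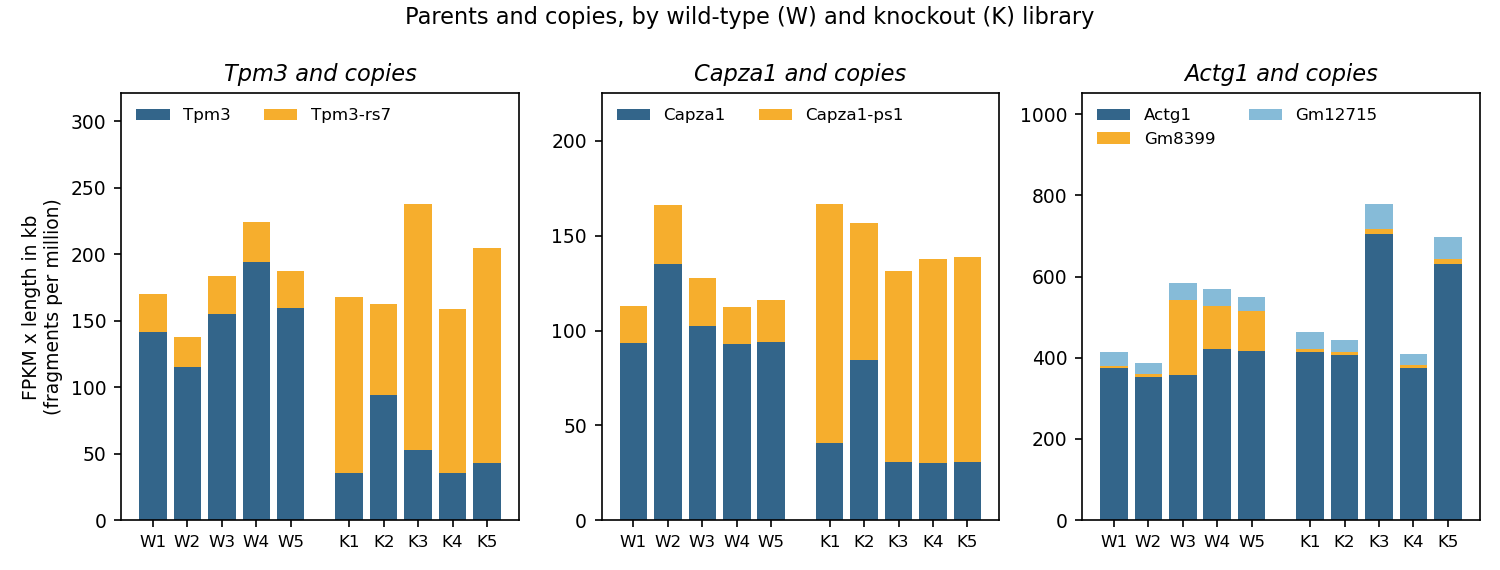
Summed level of Tpm3, Capza1 and Actg1 (dark blue) and their copies (other colours) in wild-type (W1 to W5) and knockout (K1 to K5) libraries, as FPKM times gene length in kilobases (FPKM kb). For Tpm3 and Capza1 the parent's share is lower in every knockout library, least so in knockout 2, while the sums of the groups overlap; for Actg1 the copy Gm8399 is large only in wild type 3, 4 and 5.

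In all, 12 copies of 9 members were measured at a mean of at least 1 FPKM, and 3 of them were called higher and 0 lower by limma, against 7.9% higher and 4.96% lower of all genes. The rises of Tpm3-rs7 and Capza1-ps1 were known when the members were chosen, so this count is a description and shows no excess. The third copy called was Gm7809, a processed pseudogene of Tpm4, at 0.52 to 1.39 FPKM among wild-type and 2.15 to 3.40 FPKM among knockout libraries (log2 fold change 0.92, SE 0.14, limma adjusted p = 0.00167). Its wild-type mean was 0.988 FPKM, so Gm7809 reached the required mean of 1 FPKM only through the knockout libraries. Tpm4 made up at least 98.8% of the sum with this copy in every library. With every copy added to its parent, 3 members were higher and 1, Gsn, was lower. The members that share at least 0.2 of their 31-base sequences with another gene are Actb, Actg1, Cfl1, Tpm3, Myl12a, Myl12b, Capza1, Vcl, Arpc1b and Actr3. How fragments shared with another gene were divided is not stated for any of these 10. Cfl1 and Actr3 had log2 fold changes of 0.44 and 0.37 both with and without their copies. Actb, Myl12a, Myl12b, Vcl and Arpc1b had no copy among the 12.

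The cross-linkers and adhesion proteins tie filaments to each other and to junctions, and none of 6 passed the test (limma, 0 at an unadjusted p under 0.05). Actn4, an alpha-actinin, was the most abundant, with a wild-type mean of 89.8 ± 11.0 FPKM and a knockout mean of 103 ± 16.6 FPKM (SD, n = 5 and 5; log2 fold change 0.19, 95% interval -0.11 to 0.48). Its paralog Actn1 had 2.50 ± 0.663 and 3.71 ± 1.84 FPKM (0.38, 95% interval -0.10 to 0.86), the widest interval of the 6, with 6.85 FPKM in knockout 3 and at most 3.76 FPKM in the other libraries. The filament cross-linker Flna had 22.2 ± 3.54 and 24.6 ± 6.69 FPKM. Vcl, which encodes vinculin, had 10.6 ± 1.55 and 11.4 ± 1.71 FPKM. The adhesion proteins Zyx (zyxin) and Tln1 (talin) leaned to wild type. Zyx had 4.35 ± 1.06 and 3.33 ± 0.737 FPKM (log2 fold change -0.30, 95% interval -0.64 to 0.04), and Tln1 5.54 ± 1.16 and 4.51 ± 0.796 FPKM (-0.24, 95% interval -0.55 to 0.07).

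Ezrin, radixin and moesin link filaments to the plasma membrane, and none of the 3 genes passed (limma, 0 at an unadjusted p under 0.05). Ezr had a wild-type mean of 179.6 ± 17.1 FPKM and a knockout mean of 196 ± 49.4 FPKM (SD, n = 5 and 5; log2 fold change 0.09, 95% interval -0.26 to 0.45), Rdx 26.9 ± 1.59 and 27.6 ± 3.82 FPKM, and Msn 6.40 ± 1.90 and 7.12 ± 1.87 FPKM. Ezr, the form typical of epithelia, made up 82.9% to 85.8% of the summed level of the 3 genes in wild type and 80.4% to 88.7% in knockout.

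Nonmuscle myosin II consists of heavy chains with an essential and a regulatory light chain, and none of the 5 tested genes passed (limma, 1 at an unadjusted p under 0.05). That gene was Myh14, the heavy chain of myosin IIC, which had a wild-type mean of 6.67 ± 1.26 FPKM and a knockout mean of 9.85 ± 2.40 FPKM (SD, n = 5 and 5; log2 fold change 0.49, SE 0.16, limma adjusted p = 0.0625). It stood at 8.68, 5.31, 6.03, 6.69 and 6.65 FPKM in wild type 1 to 5 and at 7.42, 8.81, 13.3, 8.39 and 11.4 FPKM in knockout 1 to 5, so that wild type 1 lay above knockout 1 and 4. Without wild type 1 or without knockout 1 it was called higher (limma adjusted p = 0.0499 and 0.0464). Myh9, the heavy chain of myosin IIA, had 22.9 ± 3.88 and 25.0 ± 3.49 FPKM (0.13, 95% interval -0.18 to 0.43). Myh9 made up 72.6% to 81.1% of the summed heavy chains in wild type and 67.9% to 76.7% in knockout, and Myh14 18.7% to 26.9% and 23.2% to 31.6%. Myh10, the heavy chain of myosin IIB, was too low to test, at 0.04 to 0.23 FPKM over all libraries.

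Of the light chains, Myl6, the essential chain, had a wild-type mean of 89.5 ± 16.2 FPKM and a knockout mean of 101 ± 15.7 FPKM (SD, n = 5 and 5; log2 fold change 0.17, 95% interval -0.14 to 0.48). The regulatory chains were Myl12a, with 33.1 ± 4.11 and 33.1 ± 6.09 FPKM, and Myl12b, with 19.9 ± 2.30 and 19.9 ± 1.97 FPKM. Their 95% intervals on the log2 scale were -0.31 to 0.28 and -0.22 to 0.24. Myl9, the regulatory chain abundant in smooth muscle, was listed at 0 in all 10 libraries and was not tested. The myosin II transcripts found at 1 FPKM or more were thus those of Myh9 and Myh14 with Myl6, Myl12a and Myl12b.

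RhoA and its kinases, which raise the phosphorylation of the regulatory light chain, were measured by 3 genes, none of which passed (limma, 0 at an unadjusted p under 0.05). Rhoa had a wild-type mean of 39.5 ± 1.94 FPKM and a knockout mean of 41.4 ± 1.62 FPKM (SD, n = 5 and 5; log2 fold change 0.07, 95% interval -0.11 to 0.24). Rock2 had 5.98 ± 0.804 and 6.66 ± 0.169 FPKM (0.14, 95% interval -0.07 to 0.35), and Rock1 3.96 ± 0.302 and 4.17 ± 0.523 FPKM (0.05, 95% interval -0.16 to 0.27).

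The level of the members spanned a wide range. Over the 10 libraries, 7 members had a mean of 100 FPKM or more (Actb, Gsn, Arpc2, Ezr, Tmsb4x, Actg1 and Tpm4), 21 lay between 10 and 100 FPKM, 9 between 1 and 10 FPKM, and Myh10 and Myl9 below 1 FPKM. The 39 members summed to 2264 to 2752 FPKM among wild-type and 2267 to 2986 FPKM among knockout libraries, which was 0.593% to 0.704% and 0.568% to 0.749% of the table's total. The knockout libraries with the highest sums were knockout 3, at 2986 FPKM, and knockout 5, at 2876 FPKM.

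The libraries of a group differed in which members stood at the extremes. Knockout 3 held the highest knockout value for 17 of 37 members (45.9%, against 23.0% of all genes tested). Knockout 4 held the highest for 0 and the lowest for 16 (43.2%, against 23.3%). Wild type 2 held the highest wild-type value for 15 members and the lowest for 15 (40.5% each, against 27.0% and 28.9% of all genes). Wild type 2 thus departed from its group in both directions. In that library the median log2 deviation from the mean of the other wild-type libraries was 0.19 for genes up to 1500 bp and -0.08 for genes of 5000 bp or more. Such deviations were not particular to it, since they were -0.11 and 0.09 in wild type 1. In knockout 2, set against the other knockout libraries, they were 0.17 and 0.01. The part of gene length in these values was not tested. Of the clock output genes Nr1d1, Dbp, Per3 and Tef, none passed the test. Their score ranged from 2.50 to 4.69 in wild type and from 1.48 to 4.08 in knockout, on the log2 scale. It was 1.48 in knockout 5, 2.13 in knockout 3 and 2.23 in knockout 4. Low scores thus occurred both in the libraries with the highest sums of members and in knockout 4. The part of the score in the spread among knockout libraries was not tested.

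**Figure D4:**
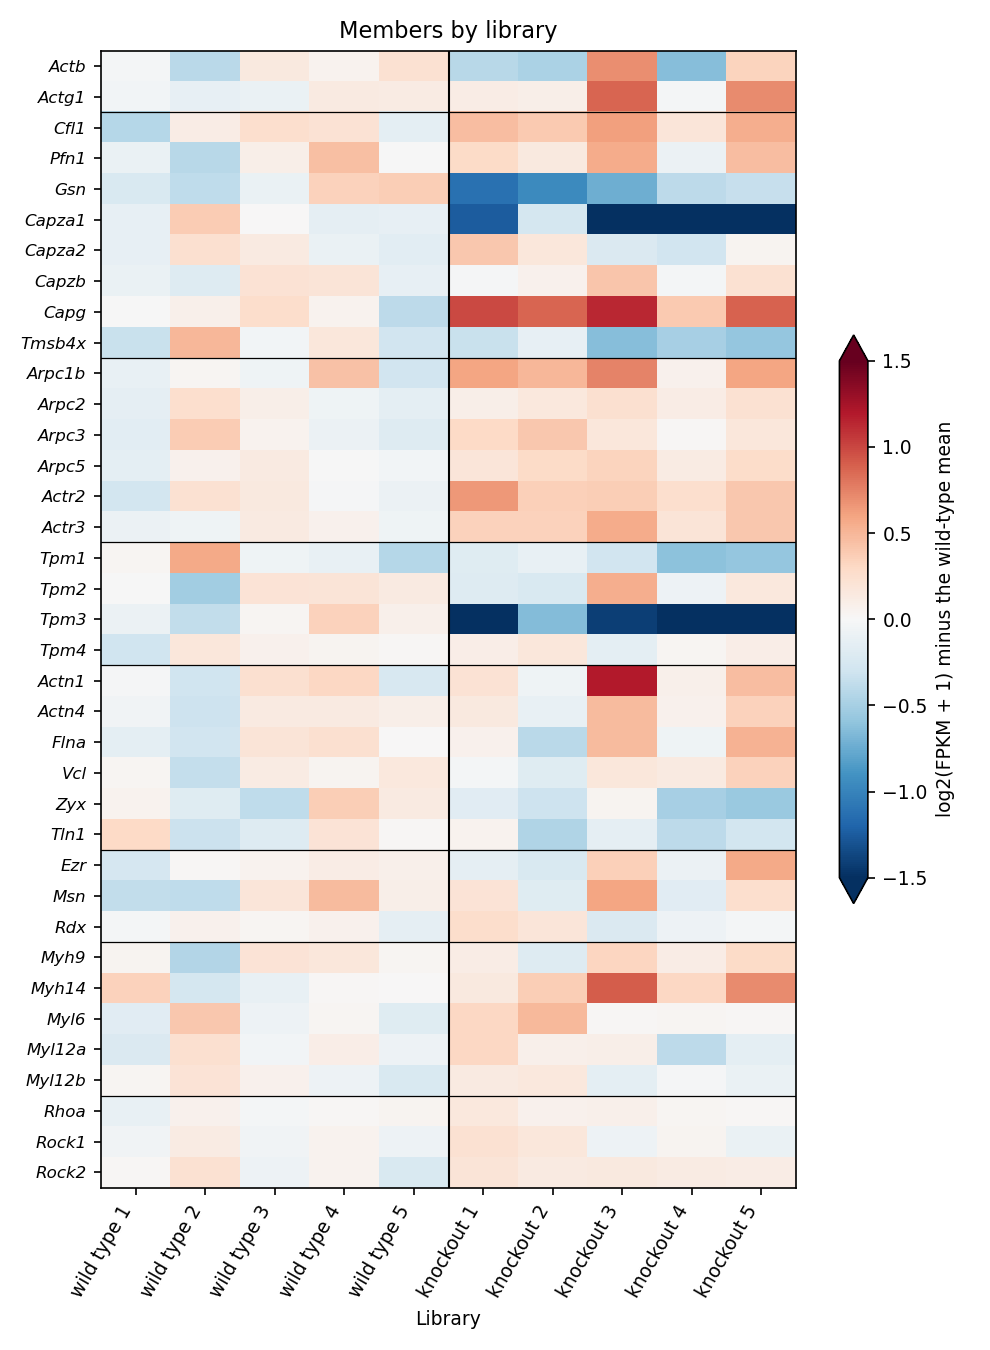
Log2(FPKM + 1) of the 37 tested actin genes in each library minus the wild-type mean of the gene, ordered by role; red is above and blue below that mean, and colours saturate at 1.5. Capg is red and Tpm3, Capza1 and Gsn are blue in all knockout libraries; Actb and Actg1 are darkest red in knockout 3, followed by knockout 5.

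A further 100 genes of actin regulation were found, and 73 were tested: 6 were higher and 1 was lower, 9.59% called against 12.9% of all genes. The bundling protein Fscn1 (fascin) had the largest change, from 5.05 ± 1.50 to 13.1 ± 4.01 FPKM (SD, n = 5 and 5; log2 fold change 1.21, SE 0.20, limma adjusted p = 0.00271). Lasp1, a filament-binding LIM protein, rose from 4.42 ± 0.899 to 6.54 ± 0.523 FPKM (0.49, limma adjusted p = 0.0206). The monomer-binding Twf2 (twinfilin) rose from 4.18 ± 1.09 to 6.84 ± 1.32 FPKM (0.61, limma adjusted p = 0.0224). Tmsb10, thymosin beta-10, rose from 19.4 ± 5.51 to 33.5 ± 8.59 FPKM (0.77, limma adjusted p = 0.0350), and shares 0.320 of its sequence with another gene. Cap1, a cyclase-associated protein that recycles monomers, rose from 45.8 ± 6.46 to 64.9 ± 12.3 FPKM (0.49, limma adjusted p = 0.0416), and Rnd3 from 11.7 ± 2.62 to 17.6 ± 3.51 FPKM (0.55, limma adjusted p = 0.0454). The gene that fell was Scin, the gelsolin relative scinderin, from 3.41 ± 1.24 to 1.17 ± 0.432 FPKM (-0.997, SE 0.20, limma adjusted p = 0.00681). Fscn1 and Scin kept their calls without each single library, whereas the other 5 lost theirs without 2 to 7 of the 10. With the marker score in the model 0 of the 73 were called (limma, 7 at an unadjusted p under 0.05). The log2 fold changes were then 1.14 for Fscn1, -1.07 for Scin, 0.62 for Lasp1 and 0.52 for Twf2. They were 0.51 for Tmsb10, 0.38 for Cap1 and 0.01 for Rnd3. Because the score moved with genotype, these values cannot show the part of other cell types in any of the 7 genes. By subgroup, 4 of 17 genes of monomer and filament turnover were called, and 2 of 19 of bundling and adhesion. The counts were 0 of 13 for nucleation promoters and formins (limma, 2 at an unadjusted p under 0.05) and 0 of 6 for regulators of myosin II (2). They were 0 of 3 for Srf and its cofactors (1) and 0 of 2 for actin-related proteins outside Arp2/3 (1).

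Actin genes are classic targets of Srf, which binds the CArG box, and Yap acts through Tead factors, whose sites hold the letters GGAATG. In RefSeq promoters (GRCm38.p6, 250 bases upstream of a start site, both strands searched), 37 of 39 members had an entry, with 43 promoters. Actb and Rock1 had no entry, so their promoters were not searched. A CArG box was present in 4 of the 43 (9.3%, against 1.47% of 32851 promoters), those of Actg1, Myl6, Myl9 and Vcl. They are shown as 100 bases with the box in capitals, because their transcripts ran from abundant to absent; the windows are chr11:120348531-120348630 (minus strand), chr14:20929148-20929247 (plus), chr10:128493010-128493109 (minus) and chr2:156775258-156775357 (plus).
Actg1: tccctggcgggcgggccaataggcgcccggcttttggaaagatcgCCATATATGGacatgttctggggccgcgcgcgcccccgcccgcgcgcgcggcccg
Vcl: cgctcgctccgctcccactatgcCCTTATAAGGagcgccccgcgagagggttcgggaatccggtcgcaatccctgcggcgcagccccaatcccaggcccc
Myl6: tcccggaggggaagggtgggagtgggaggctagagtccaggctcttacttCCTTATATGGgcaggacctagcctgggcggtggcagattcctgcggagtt
Myl9: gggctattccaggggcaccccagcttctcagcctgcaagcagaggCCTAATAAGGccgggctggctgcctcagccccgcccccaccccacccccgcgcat
None of the 3 tested genes with a box passed the test (limma, 0 at an unadjusted p under 0.05), and Myl9 was listed at 0. GGAATG was present in 7 of the 43 promoters (16.3%, against 12.6% of all), those of Actn4, Arpc2, Flna, Myh10, Pfn1, Tpm1 and Vcl. Myh10 was not tested, and none of the others was called, where 12.9% of all genes were. With so few genes, neither motif's count of calls can be told apart from that share. A match of letters is a description of the window and not a measured binding site.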

How the data were processed

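The authors deposited 1 table of FPKM values for all samples, with gene IDs and symbols. The build mm9 and the tools HTSeq 0.6.1, HISAT2 2.0.1 and cutadapt are named in the submitters' processing notes; settings, annotation, strand and the handling of fragments that match several genes were not stated in the sources used here. Without strand, antisense and overlapping genes cannot be told apart. FPKM are not counts, so no count model was fitted. The 11386 genes that reached 1 FPKM in 5 or more libraries were tested as log2(FPKM + 1) with limma 3.58.1 in R 4.3.3. Genotype was the single model term, variances were moderated with eBayes (trend and robust options), and p-values were adjusted by Benjamini-Hochberg over all 11386 genes, with a threshold of 0.05; the log2 scale understates changes of low genes. The model was also run on simulated data with independent noise for each gene and library. These held no effect shared by the genes of a library, so that run cannot show how calls fare under such effects. Depth came from the FPKM steps of single-exon genes, where 97.9% to 98.4% of values were whole fragments, against 9.26% to 11.0% by chance, within the rounding of the deposited values plus 0.01 fragments. Chromosomes, lengths and shared 31-base sequences came from GENCODE M21 (GRCm38), which is not the build named in the processing notes. The depth estimate above used these M21 lengths. Copies are M21 pseudogenes or related sequences sharing at least 0.2 of their 31-base sequences with a member, at a mean of at least 1 FPKM; their lengths, and so the sums in FPKM kb, rest on M21. Promoters are from RefSeq. The call count of 1 subgroup of the further actin genes is not reported here. The members and all lists were chosen with earlier results of these data known. Called members, the actins, Stk3 and Stk4 are given in every library and other members by group; called genes of the further list and of the marker lists, with each marker list's most abundant gene, are named; Col1a1, Acta1, Acta2, Myh14, Arpc1a, Arpc4 and Arpc5l values or names beyond that rule, and the copies' details, were chosen after their values were seen. Alternatives were other pseudocounts (0.1 and 5), filters, scalings, covariates, the replicate block, genes sharing sequence left out and each library left out; adding copies to their parents was chosen after seeing the data. Whether same-numbered libraries are paired is not stated in the labels. Figures used matplotlib 3.10.9, and tables pandas 2.3.3, in Python 3.11.15.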

Additional observations from a re-analysis of the deposited data

Results flagged for a closer look

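Values of 2 genes stood far from the rest of their group. In wild type, Capza1 was at 35.75 FPKM in wild type 2, against 24.6 to 27.2 FPKM in the other 4 libraries. In knockout, Capza1 was at 22.37 FPKM in knockout 2, against 7.99 to 10.8 FPKM in the others. Vcl was at 7.97 FPKM in wild type 2, against 10.8 to 11.9 FPKM in the other wild-type libraries. Of 76 groups of 5 values examined, 3 were flagged because the gap to the nearest library exceeded 0.71 of the range, which chance does in about 1 of 20 groups.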

How the results depend on the processing

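Fold changes here are log2, knockout minus wild type, all from limma. Over 952 pairs of a called or member gene and an alternative, 83 calls ended, 6 were gained and 53 changed sign, of which 51 had no call in either fit. Of 37 members, 3 higher and 3 lower became 1 and 2 with no filter on low values, 4 and 3 with a filter at 5 FPKM, 1 and 3 with median-ratio scaling, 1 and 4 with quantile normalization, 0 and 0 with the fibroblast, endothelial and muscle marker covariate, 1 and 3 with the clock output covariate, 2 and 1 with genes sharing sequence left out, and 3 and 1 with copies added to their parents. Of 73 further actin genes, 6 higher and 1 lower became 2 and 1 with no filter, 2 and 2 with median-ratio scaling and 0 and 0 with the marker covariate; the lower count was 0 with the filter at 5 FPKM and 2 with quantile normalization. The members' median, 0.12 as reported, was 0.0094 with quantile normalization and 0.022 with the marker covariate. Without each single library, members higher ranged from 1 to 4 and lower from 2 to 3, further actin genes higher from 1 to 7 and lower from 1 to 3, and the median from 0.08 to 0.15. The cause of these changes was not tested, except that a filter or an omission alters how many genes or libraries are tested.

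The signs that changed were, with copies added, Tpm3 (0.043) and Capza1 (0.208). With median-ratio scaling they were Tpm2 (-0.028), Tpm4 (-0.018), Myl12b (-0.058), Capza2 (-0.046), Rdx (-0.043), Rhoa (-0.0010) and Rock1 (-0.0013). With quantile normalization they were Tpm2 (-0.092), Tpm4 (-0.075), Myl12b (-0.063), Capza2 (-0.065), Ezr (-0.042), Rdx (-0.057), Arpc2 (-0.0036) and Rhoa (-0.029). With the marker covariate they were Tpm4 (-0.072), Myl6 (-0.119), Myl12b (-0.139), Capza2 (-0.248), Ezr (-0.114), Rdx (-0.063), Arpc2 (-0.072), Arpc3 (-0.126) and Rock2 (-0.024). With the clock covariate they were Tpm2 (-0.115), Myl12a (0.081), Ezr (-0.089), Flna (-0.058) and Vcl (-0.038). Without single libraries the ranges that crossed 0 were -0.024 to 0.099 for Tpm4, -0.074 to 0.0997 for Capza2, -0.090 to 0.107 for Tpm2, -0.094 to 0.081 for Myl12a, -0.00066 to 0.157 for Vcl, -0.048 to 0.060 for Myl12b, -0.035 to 0.083 for Rdx, -0.298 to 0.035 for Actb and -0.024 to 0.177 for Ezr.

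The replicate block (the sample number in the model) gave 1 member higher and 3 lower, without the calls of Actr2 and Actr3 (limma adjusted p = 0.0852 and 0.0566), 2 further actin genes lower, and gave 773 genes higher and 551 lower against 900 and 565. The labels do not say whether equal numbers mark paired samples, and correlations between libraries cannot settle it. The correlation of deviations over same-numbered libraries ran from -0.24 to 0.42, with 3 of 5 above 0.1. In that comparison, 1 wild-type library correlated best with its own number. Myh10 and Myl9 were too low to test at this depth.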
